A study of Rattus norvegicus with 40 samples.

Results

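A set of 40 genes of microglia, macrophages and innate immunity were followed in rat cerebral cortex after hypoxic or sham preconditioning. The genes are named by a fixed list of cell markers, ligands, complement components, adaptors, lysosomal genes and signalling genes. A gene was measured by the probe set that is annotated to it alone, and by the brightest on average where it had several. Of the 40 genes, 39 had such a probe set, against 14217 named genes on the whole array, and Spi1 had none. RNA of cerebral cortex was hybridised to 40 single-colour Affymetrix arrays, 20 from rats labelled as exposed to hypoxic preconditioning and 20 from sham rats held in normal oxygen. The samples of each group are numbered 1 to 20 and are compared here in 4 number runs of 5 arrays per group: numbers 1 to 5, numbers 6 to 10, numbers 11 to 15, and numbers 16 to 20. What a run stands for is not said in the labels, so a difference between runs cannot be told apart from a batch. The sources used here do not give strain, age, oxygen level or length of exposure. No label says that each sample is a rat of its own, so the p-values speak to the spread among these samples, part of which may be technical.

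Microglia are the resident macrophages of the brain parenchyma. They depend on the receptor CSF1R and its ligands CSF1 and IL-34, they meet neurons through the fractalkine receptor CX3CR1, and they carry the purinergic receptor P2RY12 that guides their processes. Perivascular macrophages sit along the vessels at the border of the brain and are told from microglia by the mannose receptor MRC1 and the scavenger receptor CD163. Both cell types share complement C1q, lysosomal enzymes and the adaptors of immune receptors, and both answer to signalling through NF-kB and STAT3.

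The deposited intensities had been brought to a common array mean, and the array medians spanned 0.29 on the log2 scale, with preconditioned arrays 5 and 6 at the low end. Values under an intensity of 16 were set to 16 before log2 was taken. Testing was limited to the 18625 probe sets with a mean log2 value at or above the 40th percentile, which stands for an intensity of 31.9. Of the 39 measured members, 22 passed and 17 did not. Cd14 lay just inside that limit, at percentile 42.2 of the mean log2 values, and Ly86 just outside, at percentile 39.9. Among the cell markers, Mrc1, P2ry12, Cx3cr1, Csf1r and Aif1 were above the limit, and Cd163, Trem2 and Itgam below it. In whole cortex, fewer cells of a type and less RNA per cell cannot be told apart. Of white blood cell genes, 12 of 18 of monocytes and neutrophils and 16 of 20 of lymphocytes were at the floor on most arrays. Red blood cell genes were bright, with 2 of 6 at the floor and summed intensities of 4823 to 5848 on sham and 5592 to 8700 on preconditioned arrays in numbers 1 to 5, and 3581 to 5027 and 5159 to 8165 in numbers 6 to 10. Of the 4 tested, limma called 0 between preconditioned and sham arrays in any run, and their part in the results was not tested.

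Preconditioning came with more Mrc1, the mannose receptor of perivascular macrophages, in the samples numbered 6 to 10. Nfkbia, which encodes the NF-kB inhibitor IkB-alpha, rose in the same samples. No marker of parenchymal microglia passed the test in any run. In numbers 6 to 10, 2 of the 22 members tested were called, against 2.22% of all probe sets tested. Over all 40 arrays 1 of 22 was called, Mrc1, against 0.891% of all probe sets. In an alternative fit with a term for each sample number, which pairs same-numbered arrays, the microglia marker P2ry12 was among the members called over all arrays. Its mean log2 value was 7.47 on the preconditioned arrays and 7.67 on the sham arrays.

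The intensity of Mrc1 in numbers 6 to 10 was 95.9, 121, 90.6, 122 and 84.0 on the 5 preconditioned arrays and 69.9, 56.5, 67.0, 59.1 and 52.5 on the 5 sham arrays. The groups did not overlap there: the dimmest preconditioned array stood above the brightest sham array. The difference was 0.74 ± 0.14 on the log2 scale (SE, n = 5 and 5), or 1.67-fold, with an adjusted p of 0.0018 in limma. In numbers 1 to 5, the preconditioned arrays read 77.3, 75.5, 72.1, 88.8 and 71.6 and the sham arrays 58.7, 56.1, 68.0, 58.2 and 38.1. The groups did not overlap here as well. Their mean difference was 0.49 ± 0.14, but the call missed the threshold at an adjusted p of 0.058 in limma. In numbers 11 to 15 the difference was -0.15 ± 0.14 and in numbers 16 to 20 it was 0.42 ± 0.14, with adjusted p of 0.78 and 0.91. The arrays of these last runs overlapped between the groups, and in numbers 16 to 20 the values were 72.9, 73.7, 53.1, 65.7 and 73.8 against 50.4, 40.5, 38.3, 67.1 and 62.4.

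Over all arrays Mrc1 was higher by 0.37 ± 0.10 after preconditioning (SE, n = 20 and 20), or 1.30-fold, at an adjusted p of 0.042 in limma. That call was not firm, since leaving out any of 20 of the 40 arrays ended it, with adjusted p up to 0.07. With preconditioned arrays 5 and 6 both left out it was 0.083, and with no filter 0.077. The 20 arrays were preconditioned 1 to 10 and sham 2, 4, 5, 7, 9, 10, 12, 16, 17 and 18. The call in numbers 6 to 10 held without each of the 40 arrays in turn, with differences between 0.68 and 0.81 and adjusted p up to 0.011. Whether the effect on Mrc1 differed among the 4 runs was tested by the interaction, whose adjusted p was 0.075. Limma called 0 of 22 members in that test, against 0.762% of all probe sets. There 4 of 22 had an unadjusted p under 0.05, and the share of all probe sets at that level was not counted. Mrc1 was called there without sham array 5 or sham array 19.

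**Figure D1:**
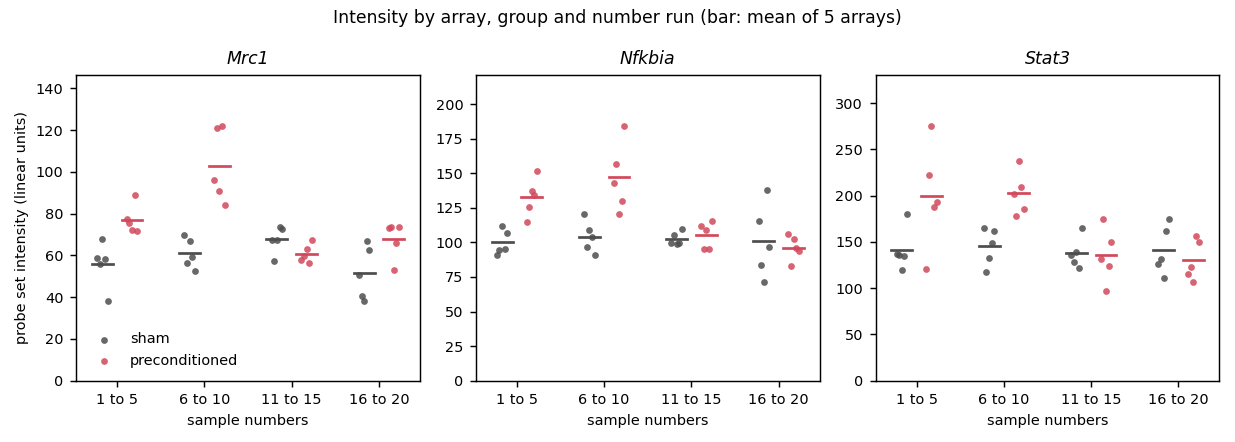
Probe set intensity (linear units) of Mrc1, Nfkbia and Stat3 on each of the 40 arrays, by number run, with sham arrays in grey, preconditioned arrays in red and a bar at the mean of 5 arrays. For Mrc1 in numbers 6 to 10, the preconditioned arrays lie between 84.0 and 122 and the sham arrays between 52.5 and 69.9, while the groups lie close together in numbers 11 to 15.

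The other perivascular marker, the haemoglobin scavenger receptor Cd163, gave almost no signal. It was at or below the floor of 16 on all 20 sham arrays and on 15 of the 20 preconditioned arrays. The 5 preconditioned arrays above it were numbers 1, 8, 9, 10 and 16, with intensities of 24.2, 16.0, 18.7, 16.2 and 16.5. No fold change is given for Cd163, so Mrc1 alone of the listed perivascular markers could be tested. Of the further list of 33 genes of border macrophages, among them the hyaluronan receptor Lyve1 and the chemokine Pf4, 10 were bright enough to test. In numbers 6 to 10, 0 of these 10 were called and their median difference was -0.07. The summed intensity of the 22 genes of that list with a probe set was 2219 to 2413 on the sham arrays and 2082 to 2390 on the preconditioned arrays of numbers 6 to 10, so the ranges overlapped.

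The markers of parenchymal microglia did not rise with Mrc1. P2ry12 in numbers 6 to 10 read 182, 190, 144, 143 and 234 on the preconditioned arrays and 240, 194, 172, 175 and 280 on the sham arrays. The groups overlapped, with a difference of -0.25 ± 0.16 (adjusted p of 0.43). A further probe set of P2ry12 gave 0.24 in the same comparison (adjusted p of 0.48), so the probe sets differed in sign and neither was called. Cx3cr1 differed by -0.10 ± 0.24, Csf1r by -0.14 ± 0.16 and Aif1, which encodes the calcium-binding protein IBA1, by -0.39 ± 0.16, with adjusted p of 0.88, 0.69 and 0.18. The lowest value of P2ry12 against sham was in numbers 11 to 15, at -0.43 ± 0.16 (adjusted p of 0.34). In these arrays P2ry12 was 116, 192, 202, 146 and 165 after preconditioning and 175, 256, 221, 205 and 234 in sham rats. Of 23 further microglia genes tested, 0 were called in numbers 6 to 10, with a median of -0.05. The difference between Mrc1 and the microglia markers was itself not tested.

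Trem2, the lipid receptor of microglia, stayed near the floor. It read 2.47 to 24.6 with a median of 14.4 on the sham arrays, and it was at the floor on 22 of the 40 arrays. Itgam, the integrin CD11b, was also below the limit and was not tested. In numbers 11 to 15 its preconditioned arrays lay between 29.7 and 42.1 and its sham arrays between 2.76 and 19.6, without overlap, an example chosen after the values were seen. With no filter no member was called in that run. The receptor gene Tlr2, also below the limit and chosen in the same way, went the other way in numbers 6 to 10. Its preconditioned arrays lay between 1.74 and 22.5 and its sham arrays between 24.6 and 30.0, without overlap.

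Among the signalling genes, Nfkbia was called in numbers 6 to 10 and Stat3 was not. Nfkbia is itself a target of NF-kB and holds that factor in the cytoplasm, and STAT3 carries the signal of the interleukin-6 family. Nfkbia in numbers 6 to 10 read 143, 157, 121, 130 and 185 on the preconditioned arrays and 121, 96.5, 109, 104 and 90.7 on the sham arrays. All but 1 of the preconditioned arrays were above every sham array. The difference was 0.49 ± 0.12 on the log2 scale, or 1.40-fold (limma adjusted p of 0.023). In numbers 1 to 5 the values were 115, 126, 137, 134 and 152 against 90.8, 94.6, 112, 95.5 and 107. These groups did not overlap, and the difference of 0.41 ± 0.12 missed the threshold (adjusted p of 0.061).

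In the later runs Nfkbia differed by 0.03 ± 0.12 and -0.04 ± 0.12, and the groups overlapped. The call in numbers 6 to 10 was lost without preconditioned array 10, sham array 7 or sham array 10, at adjusted p of 0.085, 0.067 and 0.065, and in a fit of the 10 arrays of the run alone, at 0.098. Stat3 in numbers 6 to 10 was 202, 178, 237, 210 and 186 against 165, 117, 132, 149 and 162. The groups were separate, yet the difference of 0.49 ± 0.16 was not called (adjusted p of 0.085). A further probe set of Stat3 gave 0.54 (adjusted p of 0.096). In numbers 1 to 5 Stat3 differed by 0.46 ± 0.16 (adjusted p of 0.11), and in the last runs by -0.05 and -0.11. Irf1, an interferon-induced factor, differed by 0.22 ± 0.23 in numbers 6 to 10 and was not called.

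The promoters of both called genes are shown to place the motifs of PU.1, NF-kB, STAT and interferon regulatory factors in them. Promoter sequence came from RefSeq on the rat build GRCr8, and 27 of the 40 members had an entry. Each is the 250 bases before the gene's start, read 5′ to 3′ on the gene's strand. A set of 4 motifs were searched on both strands: the PU.1 core GAGGAA, the NF-kB consensus, the STAT core TTCNNNGAA and the interferon regulatory factor core GAAANNGAA. The capitals mark the PU.1 core in Mrc1 (chr17:82157475-82157724, plus strand), where it stands reversed at both places, and the NF-kB consensus in Nfkbia (chr6:78597073-78597322, minus strand).
Mrc1: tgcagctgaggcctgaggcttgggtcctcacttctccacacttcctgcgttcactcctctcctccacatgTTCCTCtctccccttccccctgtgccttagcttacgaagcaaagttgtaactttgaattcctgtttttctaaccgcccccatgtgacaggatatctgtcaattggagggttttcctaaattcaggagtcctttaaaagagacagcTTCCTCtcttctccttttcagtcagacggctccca
Nfkbia: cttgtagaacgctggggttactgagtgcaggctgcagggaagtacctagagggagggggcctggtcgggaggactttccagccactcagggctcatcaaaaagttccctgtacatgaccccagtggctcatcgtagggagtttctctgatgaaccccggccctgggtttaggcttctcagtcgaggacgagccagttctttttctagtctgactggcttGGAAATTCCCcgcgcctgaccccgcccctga
The Nfkbia match lay 31 to 22 bases before the start, and that promoter also held the interferon regulatory factor core on the opposite strand, 55 to 47 bases before the start. A PU.1 core was in 14 of 27 member promoters, or 51.9%, and in 23.3% of 33469 promoters of the same length. An NF-kB consensus was in 5 of 27, those of Cd74, Tlr2, Nfkbia, Socs3 and Irf1, and in 3.5% of all. The STAT core was in 5 of 27 against 7.7% and the interferon regulatory factor core in 4 of 27 against 8.1%. A match is a description of the letters and shows no binding.

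Complement C1q, whose 3 chains tag cells and synapses for removal, was called in none of the preconditioned versus sham comparisons fitted without sample number. With a term for each sample number, C1qa and C1qb were called over all arrays. In numbers 11 to 15 the differences were 0.41 ± 0.17 for C1qa, 0.46 ± 0.16 for C1qb and 0.54 ± 0.20 for C1qc, with adjusted p of 0.41, 0.32 and 0.35 in limma. C1qa read 111 to 137 on the preconditioned arrays of that run and 80.4 to 115 on the sham arrays, and 4 of 5 preconditioned arrays were above every sham array for each chain. C3, which C1q activation leads to, was at the floor on 29 of 40 arrays. The cathepsin Ctss, a lysosomal protease of myeloid cells, read 192, 219, 206, 239 and 217 after preconditioning in that run and 146, 162, 139, 179 and 170 in sham rats. Those groups did not overlap, but the difference of 0.43 ± 0.18 was not called (adjusted p of 0.39).

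The counts by run were low throughout. In numbers 1 to 5, 0 of 22 members were called by limma, against 2.39% of all probe sets. Those with an unadjusted p under 0.05 were 3 of 22, Mrc1, Nfkbia and Stat3, beside 3100 of 18625 probe sets. The number called at the adjusted threshold was 2 without preconditioned array 1 or sham array 19, and 1 without sham array 3 or 18. In numbers 6 to 10, 4 of 22 had an unadjusted p under 0.05, 3 higher and 1 lower, beside 3128 of 18625 probe sets. In numbers 11 to 15, 0 of 22 were called against 0.0698% of all. At an unadjusted p under 0.05 were 6 of 22, beside 1835 of 18625. In numbers 16 to 20, 0 of 22 were called against 0% of all. At an unadjusted p under 0.05 were 2 of 22, beside 952 of 18625. The median difference of the members lay between 0.01 and 0.07 in these 4 runs, beside medians of all probe sets between -0.03 and 0.00. The ligands Cx3cl1, Csf1 and Il34, the adaptors Tyrobp and Fcer1g, the kinase Lyn, the lysosomal protein Laptm5, the oxidase subunit Cyba, the lysozyme Lyz2 and the endotoxin co-receptor Cd14 were called in none of the 4 runs.

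**Figure D2:**
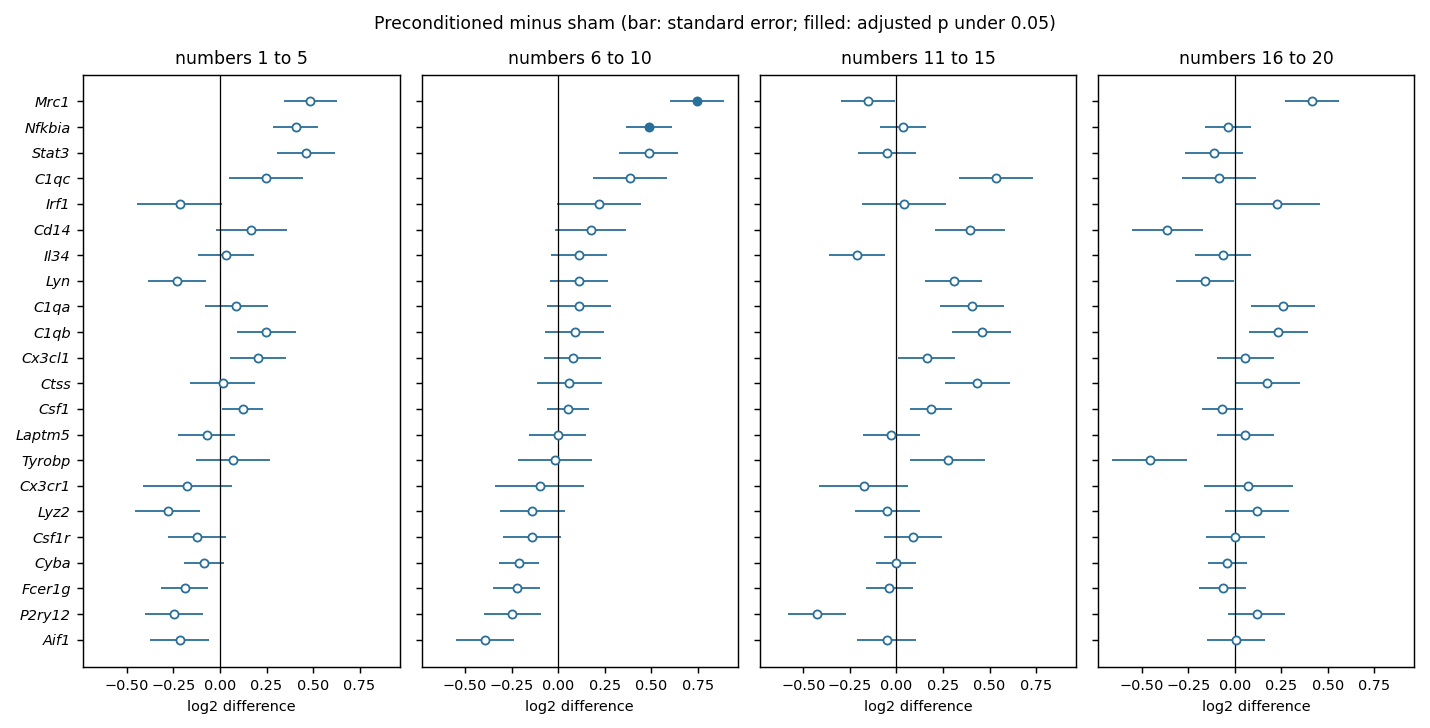
Preconditioned minus sham difference (log2 intensity, horizontal axis) of the 22 members tested, 1 panel per number run, with bars of 1 standard error; filled points passed an adjusted p of 0.05. Mrc1 at 0.74 and Nfkbia at 0.49 in numbers 6 to 10 are the filled points.

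Genes that mark other states of macrophages were counted beside the members. Of 29 tested genes of phagocytosis, lysosome and lipid handling, 4 rose and 0 fell in numbers 6 to 10: Mertk, a receptor kinase that takes up dying cells, by 1.00 ± 0.18, Gpnmb by 0.73 ± 0.18, the protease Ctsl by 0.24 ± 0.05 and the progranulin gene Grn by 0.23 ± 0.06. Mertk read 59.8, 82.0, 64.9, 68.4 and 77.9 on the preconditioned arrays and 27.7, 43.8, 31.7, 33.4 and 40.8 on the sham arrays, without overlap (limma adjusted p of 0.00068). In numbers 1 to 5, 3 of the 29 rose, the haem oxygenase Hmox1 by 0.87 ± 0.23, Mertk by 0.64 ± 0.18 and Grn by 0.24 ± 0.06. In the last runs Mertk differed by -0.11 and -0.06, and the interaction among runs was called (limma adjusted p of 0.02). Grn differed by 0.09 ± 0.06 in numbers 11 to 15 and by 0.23 ± 0.06 in numbers 16 to 20, without a call. Its interaction was not called (limma adjusted p of 0.62). Over all arrays Gpnmb rose by 0.42 and Grn by 0.20, and Hexa, a lysosomal hexosaminidase, fell by 0.20.

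Pathway lists around the members gave few calls. Of 14 interferon response genes 1 rose in numbers 6 to 10, Ifitm3, an antiviral membrane protein, by 0.66 ± 0.13. Of 11 further NF-kB genes and 21 further JAK-STAT genes, 0 were called in numbers 1 to 5 or 6 to 10 by limma. In the Toll-like receptor list, Ly96, the endotoxin co-receptor MD-2, fell by 0.70 in numbers 1 to 5 and was the only call of 13. It read 30.8, 20.0, 28.0, 15.8 and 26.0 after preconditioning and 41.8, 35.3, 35.7, 44.8 and 34.2 in sham rats, and the groups did not overlap. Of 13 tested genes of chemokine and CSF1 signalling, 2 rose in numbers 1 to 5, Ackr3 by 0.59 ± 0.15 and Cxcl12 by 0.27 ± 0.06. Of 11 complement genes and 4 antigen presentation genes, 0 were called in numbers 1 to 5 or 6 to 10.

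Markers of other cells moved in the same samples. In numbers 6 to 10, 3 of 12 astrocyte markers rose, Gfap by 1.02 ± 0.19, Aldoc by 0.42 ± 0.12 and Glul by 0.41 ± 0.10, and the summed intensity of the list was 9885 to 13041 on sham and 11476 to 17326 on preconditioned arrays. Of 11 endothelial markers 2 rose and 2 fell in that run, Kdr and Vwf up and Abcb1a and Tek down, with sums of 1508 to 1677 and 1562 to 1885. No marker of these lists was at the floor on most arrays. In numbers 1 to 5, 4 of the 11 endothelial markers rose, Flt1 by 1.16 ± 0.23, Pecam1 by 0.53 ± 0.14, Vwf by 0.49 ± 0.13 and Kdr by 0.40 ± 0.09, with sums of 1439 to 1714 on sham and 1558 to 1927 on preconditioned arrays. Astrocyte markers gave 0 limma calls of 12 there, with sums of 8966 to 9996 and 9669 to 11641. Pdgfra, a gene of oligodendrocyte precursors, rose by 0.34 ± 0.08 in numbers 1 to 5 and by 0.45 ± 0.08 in numbers 6 to 10, as 1 of 9 of its list. Lck, of the lymphocyte list, fell by 0.37 in numbers 6 to 10. In numbers 11 to 15, Gfap rose by 1.07 ± 0.19 and Vwf by 0.61 ± 0.13. The part of these markers in the values of Mrc1, Nfkbia, Mertk, Hmox1 and Grn was not tested.

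More members were called between number runs than between treatments. In sham cortex, 12 of the 22 members tested were higher in numbers 16 to 20 than in numbers 1 to 5, against 6.94% of all probe sets, and 0 were lower, against 7.88% of all. They were the microglia markers P2ry12, Cx3cr1, Csf1r and Aif1, the ligands Cx3cl1 and Il34, C1qb, the adaptors Tyrobp and Fcer1g, the lysosomal genes Ctss and Lyz2, and Cd14. The median difference of the 22 was 0.50 beside -0.01 for all probe sets, and 18 of 22 were above 0. Mrc1 was not among them, at -0.12 ± 0.14 (adjusted p of 0.63). At an unadjusted p under 0.05, 14 of 22 were higher and 0 were lower, beside 5415 of 18625 probe sets in either direction.

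P2ry12 on the sham arrays was 134, 117, 151, 182 and 187 in numbers 1 to 5 and 179, 286, 241, 305 and 269 in numbers 16 to 20. All but 1 of the later arrays were above every array of the first run. The difference was 0.73 ± 0.16 (SE, n = 5 and 5), or 1.66-fold, with an adjusted p of 0.0014 in limma, and the further probe set of the gene gave 0.64 (adjusted p of 0.0077). The runs between lay in the middle, at 240, 194, 172, 175 and 280 and at 175, 256, 221, 205 and 234. Cx3cr1 was 41, 22.9, 54.7, 60.8 and 59.4 in the first run and 60.9, 90.0, 71.2, 71.7 and 71.8 in the last. The runs barely missed overlap, with 60.8 the highest of the first and 60.9 the lowest of the last. The mean difference was 0.69 ± 0.24 (adjusted p of 0.045). The call was lost without sham array 1, 2, 17, 18, 19 or 20, with adjusted p up to 0.22. It was also lost with a floor of 32, no filter or no mean trend, with adjusted p of 0.056, 0.098 and 0.054.

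Csf1r, the receptor of CSF1 and IL-34, read 70.1, 80.4, 95.2, 96.4 and 95.1 in the first run and 87.4, 159, 113, 133 and 118 in the last. All but 1 of the later arrays exceeded the first run, and the difference was 0.47 ± 0.16 (adjusted p of 0.038). The call was lost without sham array 1, 2, 17, 19 or 20, with adjusted p up to 0.14, and with no filter, at 0.075. Aif1 was 74.0, 57.0, 85.9, 95.4 and 75.1 against 110.3, 147, 124, 112 and 103. These runs did not overlap, and the mean difference was 0.63 ± 0.16 (adjusted p of 0.0055). Of the neighbouring runs no pair differed beyond the test for any of these 4 markers.

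Of the ligands, Il34 had the smallest p of any member for the sham level among the 4 runs, at an adjusted p of 0.00064 in limma's F-test. The cytokine, made by neurons in the cortex, read 73.8, 67.4, 91.5, 128 and 100.3 in numbers 1 to 5 and 131, 182, 156, 199 and 181 in numbers 16 to 20. The runs did not overlap, and the difference was 0.91 ± 0.15, or 1.87-fold (adjusted p of 0.00014). Cx3cl1, the neuronal membrane ligand of CX3CR1, was 271, 207, 326, 319 and 405 against 310.2, 562, 399.5, 546 and 437. Of the later arrays 3 were above every earlier one. The mean difference was 0.56 ± 0.15 (adjusted p of 0.010), and the call was lost without sham array 2 (adjusted p of 0.061). Csf1 differed by 0.17 ± 0.11 and was not called.

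Lysozyme Lyz2 and the cathepsin Ctss stood out among the lysosomal genes. Lyz2 read 98.0, 93.2, 93.9, 108 and 107 in the first run and 149, 219, 141, 199 and 187 in the last. Every later array was above the first run, and the mean difference was 0.82 ± 0.17 or 1.77-fold (adjusted p of 0.0013). Ctss was 143, 114, 143, 168 and 147 against 176, 338, 241, 216 and 205, also without overlap. Its mean difference was 0.69 ± 0.18 (adjusted p of 0.0062). Fcer1g, the shared gamma chain of Fc receptors, was 127, 133, 157, 165 and 205 against 167, 276, 204, 236 and 296. Of its later arrays 3 were above the first run, and the mean difference was 0.57 ± 0.13 (adjusted p of 0.0019). Cd14 was 20.7, 24.5, 33.8, 24.5 and 38.7 against 54.5, 48.6, 46.6, 40.7 and 32.3, and 4 of the later arrays were above the first run. Its difference of 0.67 ± 0.19 (adjusted p of 0.015) was lost without sham array 1 (adjusted p of 0.064) and with a floor of 32 (0.062).

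Tyrobp, the adaptor that TREM2 signals through, differed by 0.68 ± 0.20 (adjusted p of 0.018), a call lost without sham array 17 or 19 with adjusted p up to 0.058. C1qb differed by 0.49 ± 0.16 (adjusted p of 0.032), a call lost without sham array 1, 2, 17 or 19 with adjusted p up to 0.11, and with no filter at 0.069. C1qc at 0.52 ± 0.20, Laptm5 at 0.42 ± 0.15 and C1qa at 0.25 ± 0.17 were not called. Nfkbia, Stat3 and Irf1 differed by -0.02, -0.01 and -0.08 between these sham runs.

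The promoters of Ctss and Lyz2, which rose together between the runs, are shown with the PU.1 core in capitals (GRCr8, chr2:185775146-185775395, plus strand, and chr7:54798012-54798261, minus strand).
Ctss: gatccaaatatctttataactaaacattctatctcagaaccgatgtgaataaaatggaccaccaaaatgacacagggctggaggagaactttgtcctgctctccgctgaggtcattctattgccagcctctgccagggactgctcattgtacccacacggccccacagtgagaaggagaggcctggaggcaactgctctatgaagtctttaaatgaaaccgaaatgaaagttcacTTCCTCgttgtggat
Lyz2: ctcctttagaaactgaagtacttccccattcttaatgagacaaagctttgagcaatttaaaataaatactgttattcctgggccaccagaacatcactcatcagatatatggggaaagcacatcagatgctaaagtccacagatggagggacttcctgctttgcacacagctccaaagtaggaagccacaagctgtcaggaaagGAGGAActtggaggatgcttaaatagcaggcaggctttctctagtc
The core stood 15 to 10 bases before the start of Ctss and 46 to 41 bases before that of Lyz2. Both promoters also held the interferon regulatory factor core, on the gene's own strand, and the motifs did not overlap.

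**Figure D3:**
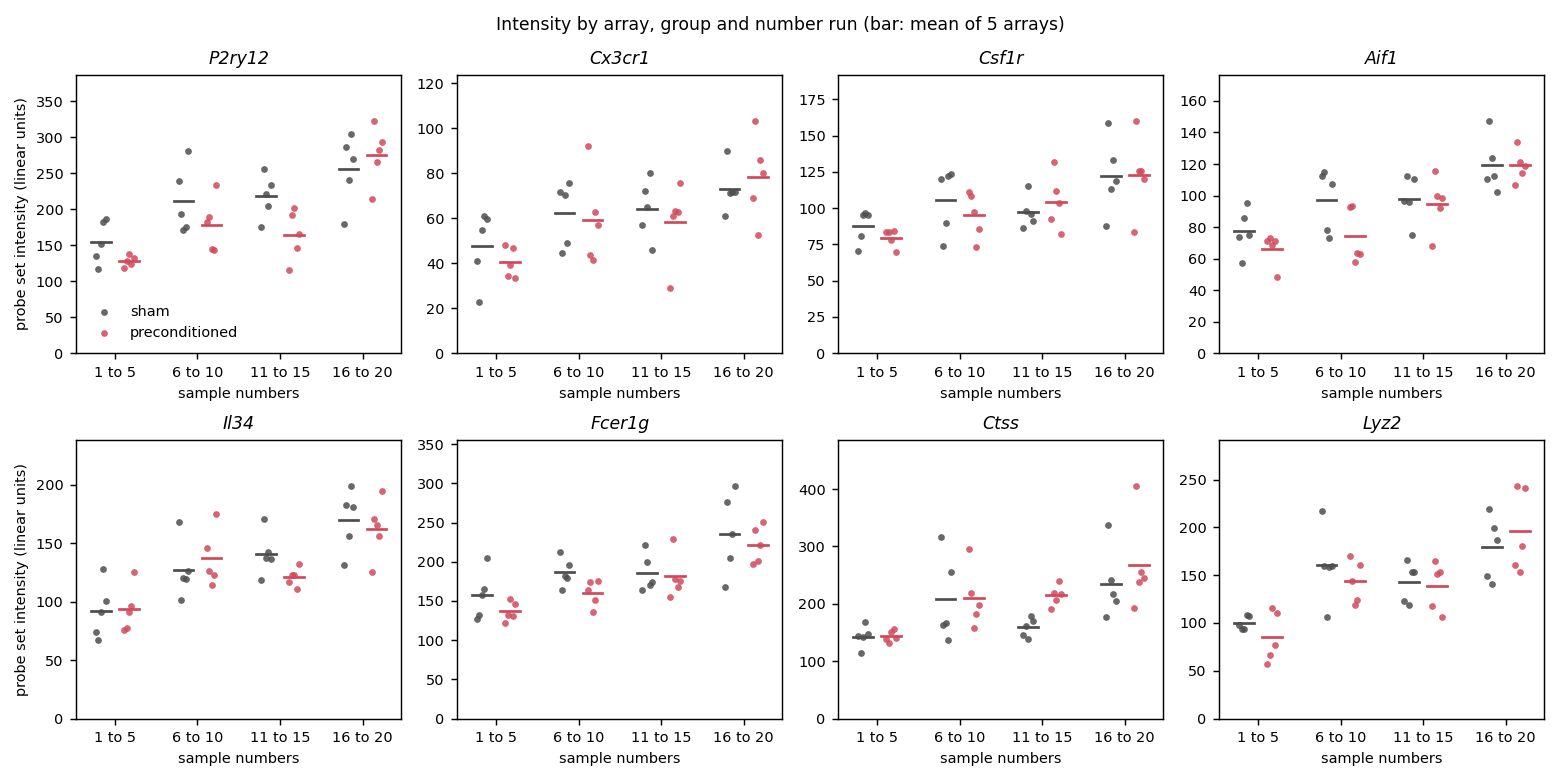
Probe set intensity (linear units) of P2ry12, Cx3cr1, Csf1r, Aif1, Il34, Fcer1g, Ctss and Lyz2 on each array by number run, with sham arrays in grey, preconditioned arrays in red and a bar at the mean of 5 arrays. Lyz2 on the sham arrays lies between 93.2 and 108 in numbers 1 to 5 and between 141 and 219 in numbers 16 to 20.

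Over the 4 sham runs together, limma's F-test called 8 of the 22 members, against 13.7% of all probe sets: P2ry12, Aif1, Cx3cl1, Il34, Fcer1g, Ctss, Lyz2 and Cd14. Without sham array 17 the count was 3, P2ry12, Il34 and Lyz2. The steps between neighbouring runs were smaller. From numbers 1 to 5 to numbers 6 to 10, 1 of 22 was higher, Lyz2 by 0.65 ± 0.17 (adjusted p of 0.049), against 0.446% of all, and 0 were lower, against 0.811%. At an unadjusted p under 0.05, 8 of 22 were higher and 0 lower, beside 2807 of 18625 probe sets in either direction. The call of Lyz2 was lost without any of 24 of the 40 arrays, with adjusted p up to 0.17. It was also lost with median centring, mean centring, no filter or no mean trend, with adjusted p up to 0.1. From 6 to 10 to 11 to 15, 0 were higher and 0 lower, against 0.161% and 0.129% of all. At an unadjusted p under 0.05 was 1 of 22, beside 1522 of 18625. From 11 to 15 to 16 to 20, 0 were higher and 0 lower, against 0.22% and 0.43%. At an unadjusted p under 0.05 were 6 of 22, beside 3010 of 18625. Without sham array 16, limma called 4 in that step, Cx3cl1, Tyrobp, Fcer1g and Ctss. The steps share sham arrays.

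The preconditioned arrays gave a similar count. They share no array with the sham comparison, but they share its number runs. Deviations of same-numbered arrays also correlated above 0 in 20 of 20 pairs, so the counts of both groups are not independent. Of the 22 members, 10 were higher in numbers 16 to 20 than in 1 to 5, against 9.58% of all probe sets, and 2 were lower, against 8.03%. The higher ones were P2ry12, Cx3cr1, Csf1r, Aif1, Il34, C1qb, Fcer1g, Laptm5, Ctss and Lyz2. Of these, 9 were among the 12 of the sham arrays, which is 75% of the sham list and 90% of the preconditioned one. The same overlap over all probe sets was not counted, so it cannot be called particular to the members. P2ry12 read 119, 128, 138, 123 and 132 in the first run and 214, 322, 266, 283 and 293 in the last, without overlap. Its difference was 1.09 ± 0.16, or 2.13-fold (limma adjusted p of 4.4e-06). Lyz2 was 56.8, 66.9, 116, 77.0 and 111 against 160.3, 243, 153, 181 and 241, also without overlap. The mean difference of Lyz2 was 1.22 ± 0.17 (adjusted p of 4.1e-06). The median of the 22 was 0.42 beside 0.01 for all probe sets. C1qb was lost without preconditioned array 1, 2, 4, 17 or 20, with adjusted p up to 0.13, and with quantile normalization, median centring or no filter, at 0.054, 0.06 and 0.071. Laptm5 was lost without array 17 at 0.053.

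The members lower in the last preconditioned run were Nfkbia, by -0.46 ± 0.12, and Stat3, by -0.59 ± 0.16 (limma adjusted p of 0.0069 and 0.0073). Nfkbia was 115, 126, 137, 134 and 152 in numbers 1 to 5 and 106, 83.2, 102.7, 95.9 and 93.8 in numbers 16 to 20, and every later array was below the first run. Mrc1 differed by -0.19 ± 0.14 and was not called. The 4 microglia markers were called higher between these runs in both groups and Mrc1 in neither, and the difference between these genes was not tested.

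**Figure D4:**
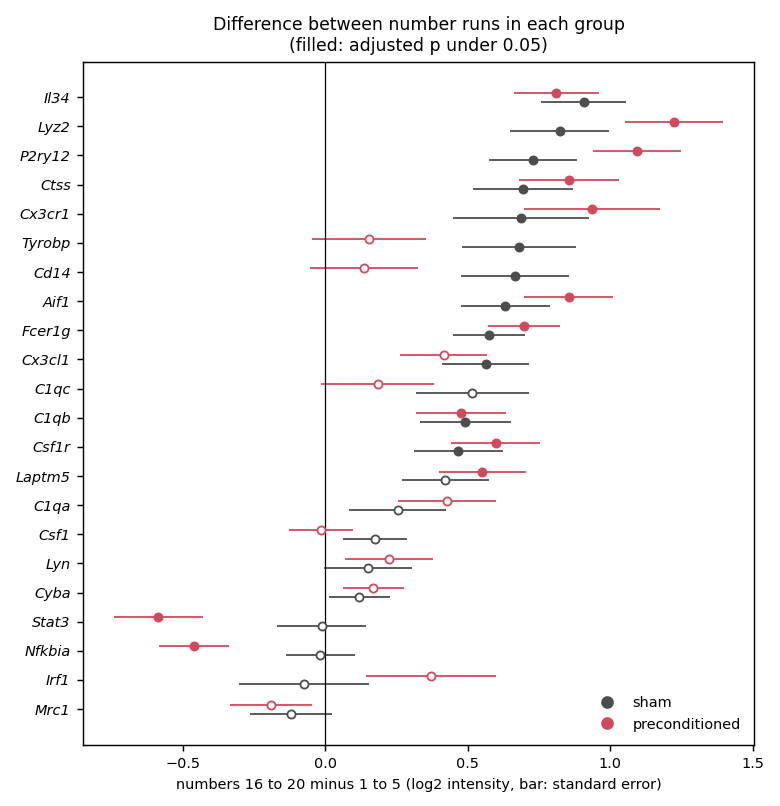
Difference between numbers 16 to 20 and numbers 1 to 5 (log2 intensity, horizontal axis) for the 22 members tested, in sham arrays (grey) and preconditioned arrays (red), with bars of 1 standard error; filled points passed an adjusted p of 0.05. Il34, Lyz2 and P2ry12 lie between 0.73 and 1.22 in both groups, while Mrc1 lies at -0.12 and -0.19.

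Other lists shifted between the same sham runs. Of 23 further microglia genes, 5 were higher in numbers 16 to 20 than 1 to 5 and 0 lower: the phospholipase Pld4 by 0.65 ± 0.20, Unc93b1, which carries Toll-like receptors to endosomes, by 0.60 ± 0.15, the GTPase Rac2 by 0.59 ± 0.21, Entpd1 and Lgmn. Their median was 0.28, and the summed intensity of the 44 genes with a probe set was 6628 to 7600 in the first run and 7205 to 7725 in the last, with overlap. Of the 10 border macrophage genes 0 were called, with a median of 0.01. In the preconditioned arrays 8 of the 23 microglia genes were higher, led by the receptor Gpr34 at 1.15 ± 0.23, and 2 of the 10 border genes, Cp and Fcgrt.

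Markers of several other cell types rose between the same sham runs. Astrocyte markers were higher for 7 of 12, with summed intensities of 8966 to 9996 in the first run and 10547 to 13160 in the last. Neuron markers were higher for 6 of 10, with sums of 16889 to 19722 and 18904 to 22414. Oligodendrocyte genes were higher for 4 of 9, led by the myelin gene Mbp at 1.15 ± 0.24, with sums of 2335 to 2570 and 2619 to 4164, and 2 of its 11 genes were at the floor on most arrays. Of 11 endothelial markers 0 were called, and of 6 genes of dividing cells 1 fell, Top2a. The 3′ to 5′ ratio of the actin probe sets, a sign of RNA quality, was 1.51 to 1.90 in the first sham run and 1.46 to 1.63 in the last. On the preconditioned arrays it was 1.69 to 1.82 in the first run and 1.45 to 1.61 in the last, without overlap. The same ratio of the GAPDH probe sets did not fall. It was 0.927 to 0.987 in the first sham run and 0.961 to 1.03 in the last. On the preconditioned arrays it was 0.915 to 0.996 and 0.955 to 1.03, and the runs overlapped in both groups. The part of these shifts in the rise of the microglia genes was not tested.

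Within the groups, P2ry12 was correlated with the other microglia markers from array to array, and Mrc1 was not called in a correlation with any of them. Each array's deviation from the mean of its group and run was taken over the 40 arrays, and 10 pairs of 5 markers were correlated. P2ry12 and Csf1r had a Pearson r of 0.59 and a Spearman rho of 0.58, with permutation p of 0.00073 and 0.00087 and adjusted p of 0.0073 and 0.0087 over the 10 pairs. The r was 0.54 without the 2 arrays farthest from the median of P2ry12. P2ry12 with Aif1 gave an r of 0.55 and a rho of 0.52, with permutation p of 0.0016 and 0.0032 and adjusted p of 0.008 and 0.012. P2ry12 with Cx3cr1 gave 0.53 and 0.45, with permutation p of 0.0027 and 0.0093 and adjusted p of 0.009 and 0.023. Without the 2 farthest arrays these r were 0.50 and 0.44. Csf1r with Aif1 gave 0.41 and 0.51, with permutation p of 0.016 and 0.0035 and adjusted p of 0.032 and 0.012. Cx3cr1 with Csf1r gave 0.37 and 0.43, with permutation p of 0.031 and 0.012 and adjusted p of 0.052 and 0.024. Cx3cr1 with Aif1 gave 0.46 and 0.40, with adjusted permutation p of 0.027 and 0.038, and its r was 0.28 without the 2 farthest arrays. Mrc1 had r between -0.13 and 0.06 and rho between -0.08 and 0.15 with the 4 microglia markers, and the lowest adjusted permutation p were 0.73 and 0.57. The arrays share a scaling factor per array, which is common to both genes of a pair. The permutation took the 40 deviations as independent of each other. Yet deviations of same-numbered sham and preconditioned arrays correlated above 0 in 20 of 20 pairs, so these permutation p may be too small.

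**Figure D5:**
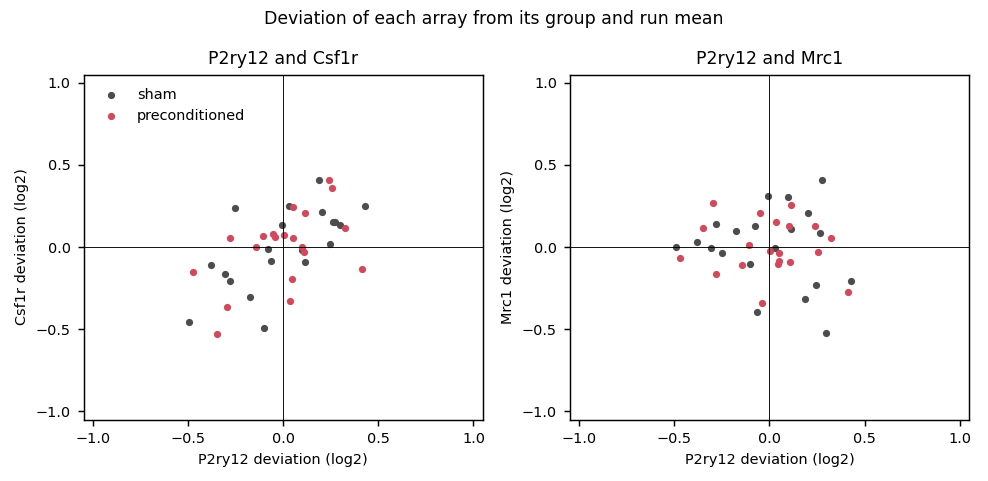
Deviation of each of the 40 arrays from the mean of its group and number run (log2 intensity) for P2ry12 on the horizontal axis and Csf1r (left) or Mrc1 (right) on the vertical axis, with sham arrays in grey and preconditioned arrays in red. The points rise together for Csf1r (r of 0.59) and show no slope for Mrc1 (r of -0.13).

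Most inflammatory members were below the limit for testing. Il1b was at the floor on 31 of 40 arrays, Ccl2 on 33, Tlr4 on 24 and Icam1 on 20. Tlr2 was at the floor on 18 and Socs3 on 12. Like these last 2 genes, Ccl3, Fcgr2b, Ptprc, Cd68, Cd74, Irf8 and Ly86 were above the floor on most arrays. A difference between groups in these genes was not tested at this brightness.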

How the data were processed

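The values are Affymetrix probe set intensity values as deposited by the authors, 1 table of 31099 probe sets on 40 arrays. Their trimmed means, with 2% cut at each end, are 150.04 to 150.06 on every array, so they had been scaled. The upstream software is not given in the sources used here. Control probe sets (57) were left out, intensities under 16 were set to 16, and log2 was taken. Probe sets at or above the 40th percentile of the mean were fitted in limma 3.58.1 (R 4.3.3), with 8 means for 2 groups and 4 number runs, and eBayes with a mean trend. The comparison over all 40 arrays came from a separate fit of 2 group means, without a term for the run. P-values are two-sided and Benjamini-Hochberg adjusted over 18625 probe sets, with a threshold of 0.05. An array is named by its group and sample number, and precision is limited by 5 arrays per group and run. Gene names are those of the platform annotation.

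The members and lists were chosen with earlier results of these data known. Members were given by array where called for preconditioning or among the 8 with the smallest p for the sham runs, with Mrc1, Cd163, P2ry12, Trem2, Cx3cr1 and Csf1r always given. Of other lists up to 3 called genes with the largest difference were named. Some further genes were chosen after their values were seen. They were Grn in numbers 6 to 10 and the later runs, Entpd1, Lgmn and the endothelial genes beyond 3 in a run. Stat3, Itgam, Tlr2 and Ly96 by array were also chosen so, as was the comparison of runs in the preconditioned arrays. Correlations used permutation within group and run, which did not keep same-numbered arrays together. The fit was tested on simulated data. Alternatives changed the normalization, floor, pseudocount, filter, probe set rule, variance trend, block, covariate and arrays in the fit. Figures were drawn with matplotlib 3.10.9 in Python 3.11.15.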

Additional observations from a re-analysis of the deposited data

Results flagged for a closer look

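Cx3cr1 on preconditioned array 11 read 29.1, far from the other 4 arrays of its group and run, which lay between 60.8 and 75.5. Aif1 on preconditioned array 5 read 48.3, against 68.6 to 73.2 on the others. Such gaps were looked for in 96 groups of 5 arrays, over 12 members, and 2 were found, where chance alone marks about 1 in 20 groups. The effect of preconditioning on Mertk differed among the 4 number runs (limma interaction, adjusted p of 0.02), with 0.64 and 1.00 in numbers 1 to 5 and 6 to 10 and -0.11 and -0.06 in the later runs.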

How the results depend on the processing

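None of the 28 single-gene calls changed direction under the alternatives run for it. Differences that were not called were not followed, and the further P2ry12 probe set differs in sign in numbers 6 to 10, as given above. Limma called 2 members in numbers 1 to 5, Mrc1 and Nfkbia, under quantile normalization, median centring, mean centring, the mean of a gene's probe sets and the replicate block, against 0. The interaction called 1, Mrc1, under quantile normalization, median centring, a pseudocount of 32 and the replicate block. Over all arrays the count was 0 with no filter, with a filter at the 60th percentile, which leaves out Mrc1, and with preconditioned arrays 5 and 6 left out, and it was 4 (P2ry12, Mrc1, C1qa and C1qb) with the replicate block. In numbers 6 to 10 it was 1 with the 60th percentile filter (Nfkbia) and 1 when that run's 10 arrays were fitted alone (Mrc1). For sham numbers 6 to 10 versus 1 to 5 it was 0 with median centring, mean centring, no filter and no mean trend. Same-numbered deviations correlated at 0.031 to 0.393, with 20 of 20 above 0 and 15 of 20 over 0.1. Since not every pair was over 0.1 and no label gives a shared source, the numbers were not taken as pairs. As a hint from the data and not the design, 36 of 40 arrays correlated best with their own number among the 5 arrays of the other group in that run. The consensus correlation of the block was 0.111. The block moved no other count by more than 1.5 times.

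Leaving out 1 array at a time gave 0 to 1 members over all arrays, 0 to 2 in numbers 1 to 5, 1 to 2 in numbers 6 to 10 and 0 to 1 for the interaction. It gave 3 to 10 for the sham level among runs, 0 to 1 for sham numbers 6 to 10 versus 1 to 5, 0 to 4 for 16 to 20 versus 11 to 15, 8 to 14 for 16 to 20 versus 1 to 5, and 10 to 14 for the preconditioned runs. The cause of these shifts was not tested. Mean centring and the sham-only fit were chosen after seeing the data. Values at the floor carry no order there. They were 25.7% of the values of the 31042 probe sets measured and 0.149% of the values of those tested.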
